A study of Mus musculus with 2 samples.

Results

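The genes described here, 10 in number, are the transcription factors Gata6, Gata4 and Sox17, the receptor Pdgfra, the endocytic adaptor Dab2, and the extracellular matrix genes Lama1, Lamb1, Col4a1, Col4a2 and Sparc. All were taken by symbol from a list of primitive endoderm factors and basement membrane genes. Each symbol matched 1 row of the feature table, which gave 10 genes of the 32285 listed. The genes were taken by name, with earlier results of these data known. Their transcripts were counted cell by cell with a droplet method in R1 cells, a mouse embryonic stem cell line, in 2 libraries. Both cultures were kept for 72 hours in N2B27, a serum-free medium, with the cytokine LIF and the growth factor BMP4. The LB culture received nothing else and grew on gelatin. The LBPXRS culture also received PD0325901 (a MEK inhibitor in the FGF pathway), Xav939 (a tankyrase inhibitor in the WNT pathway), SB431542 (an inhibitor of the NODAL and activin receptors) and a resorcyclic lactone (no target stated in the labels), and it grew on fibronectin. Medium and substrate therefore cannot be told apart. The series asks how the FGF, TGF-beta and WNT pathways bear on the induction of a totipotent state by BMP4.

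There was 1 library per condition, so differences between the libraries could not be checked against replicates and none was tested. The LB library held 1783 cells with a median of 25418 UMIs (unique molecular identifiers, which count captured RNA molecules) and the LBPXRS library 2705 cells with a median of 19058. The libraries shared 10 deposited cell barcodes, 8 of them among the kept cells. They also differed in a way the labels do not give: 4 Y-linked genes had 2872 UMIs in LB and 1 in LBPXRS, although both are labelled as the same line. Levels are UMIs summed over cells and scaled to 1000000 per library (CPM), with 95% intervals from the exact Poisson distribution that cover counting error only.

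In the blastocyst, the primitive endoderm separates from the pluripotent epiblast under FGF signalling through MEK. Gata6 acts early in that choice, Gata4 and Sox17 follow, and Pdgfra and Dab2 mark the committed cells. Primitive endoderm and the parietal endoderm it forms deposit a basement membrane, a sheet in which laminin trimers and a collagen IV network are linked by nidogen and perlecan. The same factors also work elsewhere: Gata6, Gata4 and Pdgfra are used in early mesoderm, and Sox17 in definitive endoderm.

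The factor group and the matrix genes differed in direction between the libraries. Of the 9 members with at least 1 CPM in either library, 4 were at least 2-fold higher in LBPXRS (Lama1, Col4a1, Col4a2 and Sparc), where 8.43% of the 13254 genes at that level were. A further 4 were at least 2-fold lower (Gata6, Pdgfra, Dab2 and Lamb1), where 11.8% of genes were, and Gata4 lay within 2-fold. Sox17 was below 1 CPM in both libraries and was not counted. Folds were taken as log2((LBPXRS + 1)/(LB + 1)) on the CPM scale, which understates the difference of low genes. The median log2 ratio was -1.05 over Gata6, Gata4, Sox17, Pdgfra and Dab2 and 1.51 over the 5 matrix genes, beside -0.14 over all genes at that level.

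Gata6 (ENSMUSG00000005836, chr18:11052064-11085635 in mm10), a zinc finger factor, had 170 UMIs in LB, or 3.74 CPM (3.20 to 4.34), and 34 in LBPXRS, or 0.656 CPM (0.454 to 0.917). Its log2 ratio was -1.52. Gata4 (ENSMUSG00000021944, chr14:63198922-63271692), its relative in the same family, had 2.66 CPM (2.21 to 3.18) in LB and 1.06 CPM (0.799 to 1.38) in LBPXRS. These intervals did not overlap, and the plain CPM ratio was 2.51-fold lower (1.81 to 3.51). The log2 ratio was -0.83, short of 2-fold, and past 2-fold with a pseudocount of 0.1 in place of 1, so whether Gata4 counts as lower depends on that setting. Sox17 (ENSMUSG00000025902, chr1:4490931-4497354), an HMG box factor, had 36 UMIs in LB and 40 in LBPXRS. Its levels of 0.791 CPM (0.554 to 1.10) and 0.772 CPM (0.551 to 1.05) were within counting error of each other.

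Pdgfra (ENSMUSG00000029231, chr5:75152292-75198215), the receptor for PDGF ligands, showed the widest gap of the factor group on the scale of plain CPM ratios. It had 108 UMIs in LB, or 2.37 CPM (1.95 to 2.87), against 11 in LBPXRS, or 0.212 CPM (0.106 to 0.380), an 11.2-fold lower level (6.01 to 23.1). Dab2 (ENSMUSG00000022150, chr15:6299788-6440712), which links receptors such as megalin to clathrin coats, had 2.46 CPM (2.03 to 2.96) in LB and 0.675 CPM (0.470 to 0.939) in LBPXRS, 3.65-fold lower (2.47 to 5.49).

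The matrix genes were the more abundant group in both libraries. Sparc (ENSMUSG00000018593, chr11:55394500-55423183), a secreted collagen-binding glycoprotein, had 161 CPM (158 to 165) in LB and 460 CPM (454 to 466) in LBPXRS, 2.85-fold higher (2.78 to 2.93). Lama1 (ENSMUSG00000032796, chr17:67697259-67822647), the alpha chain of the laminin of early embryos, had 102 UMIs in LB, or 2.24 CPM (1.83 to 2.72), and 426 in LBPXRS, or 8.22 CPM (7.46 to 9.04). Lamb1 (ENSMUSG00000002900, chr12:31265234-31329644), a beta chain that pairs with it in the same trimer, went the other way. It had 16.2 CPM (15.1 to 17.4) in LB and 7.60 CPM (6.87 to 8.39) in LBPXRS, 2.13-fold lower (1.89 to 2.42). With TMM scaling, which moved the median of all genes from -0.14 to -0.01, Lamb1 and Dab2 had log2 ratios of -0.86 and -0.96 and no longer passed 2-fold.

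Col4a1 (ENSMUSG00000031502) and Col4a2 (ENSMUSG00000031503) encode the alpha chains of the common form of collagen IV and lie head to head on chromosome 8. In the GENCODE annotation of mm10, Col4a1 runs leftward at chr8:11198423-11312826 and Col4a2 rightward at chr8:11312805-11449287, so their first exons share 22 bases. That stretch is shown because both genes start in it. It is given on the plus strand, with the first base of each gene in capitals, Col4a2 at the left end and Col4a1 at the right.
chr8:11312805-11312826: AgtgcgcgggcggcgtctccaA
Col4a1 had 431 UMIs in LB, or 9.47 CPM (8.60 to 10.4), and 1863 in LBPXRS, or 35.9 CPM (34.3 to 37.6), 3.79-fold higher (3.41 to 4.22). Col4a2 had 4.46 CPM (3.87 to 5.12) in LB and 21.8 CPM (20.5 to 23.1) in LBPXRS, 4.88-fold higher. The pair thus differed in the same direction, Col4a2 by somewhat more. The number of Col4a1 UMIs per Col4a2 UMI was 2.12 in LB (1.79 to 2.52) and 1.65 in LBPXRS (1.53 to 1.78).

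**Figure D1:**
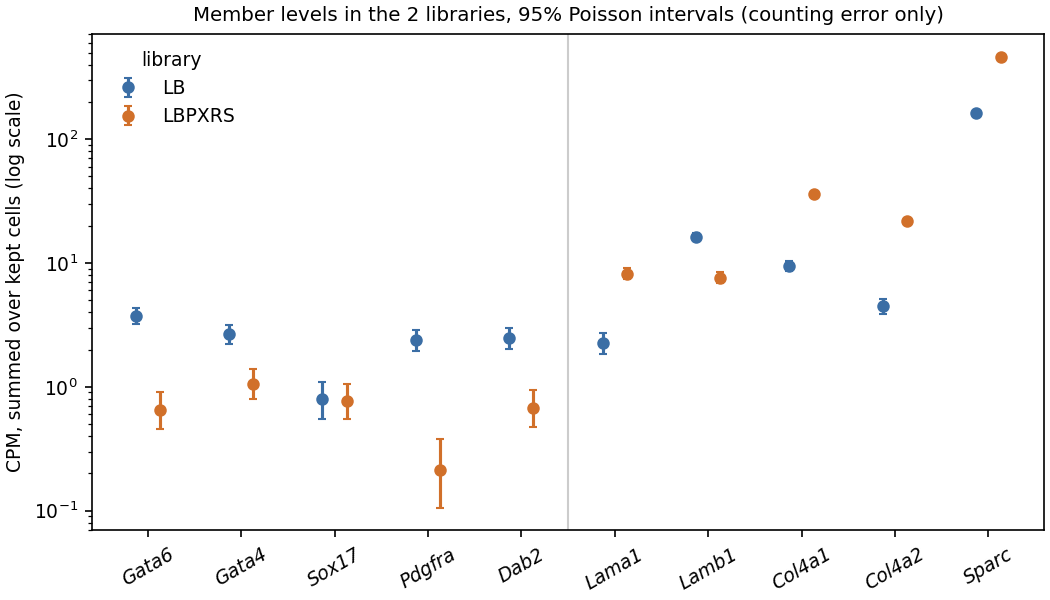
Levels of the 10 genes in each library, in CPM on a log axis, with 95% Poisson intervals that cover counting error only. Gata6, Gata4, Pdgfra, Dab2 and Lamb1 lie higher in LB (blue), Lama1, Col4a1, Col4a2 and Sparc lie higher in LBPXRS (orange), and the Sox17 intervals overlap.

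The levels of Col4a1, Col4a2 and Sparc can be set beside those of their chromosomes, whose genes were lower in LBPXRS. Among genes with a mean of at least 20 CPM, the median log2 ratio was -0.60 on chromosome 8 and -0.65 on chromosome 11, beside -0.16 over all chromosomes. With the chromosome's median subtracted, the log2 ratios of Col4a1, Col4a2 and Sparc were 2.42, 2.66 and 2.15.

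Most cells had no UMI of any factor. Shares were compared at an equal depth, with 5000 UMIs drawn from each cell. In LB, 1.85% of the thinned cells (1.27 to 2.60) had a UMI of Gata6, and in LBPXRS 0.343% (0.157 to 0.651). At full depth the shares were 5.55% and 1.07%. Gata4 was found in 1.15% and 0.572% of thinned cells, Sox17 in 0.808% and 0.534%, Pdgfra in 0.923% and 0.114%, and Dab2 in 1.44% and 0.458%. These shares can be set beside those of the naive pluripotent-like LB cells, in which low expression was not told apart from background. In naive pluripotent-like LB cells (median depth 27855 UMIs), Gata6 was found in 0 of 593 thinned cells, where a limit of 3 counts stands at 0.506%. Gata4 was found in 0.337% (0.0409 to 1.21). Sox17 and Pdgfra were also in 0 of 593, and Dab2 in 0.675% (0.184 to 1.72). The exact interval for 0 of 593 reaches 0.620%, and the intervals of all 5 thinned LBPXRS shares overlap those of the naive pluripotent-like LB cells. At full depth, the CPM intervals of Gata4 were 0.0970 to 0.697 in these LB cells and 0.799 to 1.38 in LBPXRS, without overlap. Those of Sox17 were 0 to 0.220 and 0.551 to 1.05, also without overlap, while those of Gata6, Pdgfra and Dab2 overlapped. Background was not measured in LBPXRS itself.

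Of the matrix genes, Sparc was found in the most cells and Lama1 in LB in the fewest. For Sparc the thinned share was 44.5% in LB (42.1 to 46.9) and 85.5% in LBPXRS (84.1 to 86.9), and at full depth 79.8% and 97.7%. Col4a1 was found in 4.79% (3.83 to 5.90) and 15.2% (13.8 to 16.6), and Col4a2 in 2.08% (1.46 to 2.86) and 9.27% (8.19 to 10.4). At full depth, Col4a1 was in 15.5% and 40.1% of cells. For Lama1 the thinned shares were 1.33% in LB (0.843 to 1.98) and 3.89% in LBPXRS (3.18 to 4.70). For Lamb1 they were 8.48% (7.21 to 9.89) and 3.78% (3.08 to 4.58). The shares of the matrix genes therefore had the order of the CPM.

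Where the genes were expressed in LB was asked with clusters made without the members and without other basement membrane genes. Gata6 was highest in the mesoderm-like cluster (243 cells, led by Pitx1, Hoxb6, Hoxc8, Col1a1 and Adgra2), at 18.9 CPM (15.7 to 22.7), and next in the primitive streak-like cluster (328 cells), at 6.00 CPM (4.34 to 8.09). In the naive pluripotent-like cluster (597 cells) it had 0.239 CPM (0.0651 to 0.612). Gata4 followed the same order, at 12.8, 3.91 and 0.299 CPM. The mesoderm-like cluster held 13.6% of LB UMIs and 60.9% of the UMIs of Gata6, Gata4 and Sox17, and the primitive streak-like cluster held 98 of these UMIs. Hand1, listed among both the mesoderm and the trophoblast markers used for naming, had 424 CPM in the mesoderm-like cluster. It had 239 CPM in the trophoblast-like and 85.8 CPM in the primitive streak-like cluster. No cluster of either library could be named primitive endoderm-like from the markers.

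The other members of the factor group did not share that order. Sox17 had 27 of its 36 LB UMIs in the primitive streak-like cluster, at 3.77 CPM (2.48 to 5.48). Pdgfra was also highest there, at 10.2 CPM (7.99 to 12.8), against 4.37 CPM (2.88 to 6.36) in the mesoderm-like cluster. Dab2 was spread over the mesoderm-like (6.80 CPM), trophoblast-like (6.75 CPM) and formative or primed-like (3.87 CPM) clusters, of which the first and second did not differ beyond counting error.

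With finer clusters (Leiden resolution 1 in place of 0.5), the largest share of the factor UMIs was in a small cluster of LB. A cluster of 68 cells led by Vstm2b, Kdr, Asb4, Pcsk5 and Samd5 had 45.6 CPM of Gata6, 39.7 CPM of Gata4 and 56.0 CPM of Col4a1, and held 40.1% of the UMIs of the 3 factors. It had no name under the marker rule. The cluster named mesoderm-like at that resolution then held 19.9% of them. Pdgfra peaked in another cluster of 116 cells, led by Lhx1, Mesp1, Mesp2, Cyp26a1 and Pdgfra itself, at 27.0 CPM, and Sox17 in one of 84 cells led by Dnd1, Rab6b, Lefty1, Efcab10 and Sprr2a3, at 8.77 CPM.

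The matrix genes divided the LB clusters differently. Col4a1 was highest in the mesoderm-like (35.9 CPM, 31.4 to 41.0) and trophoblast-like (28.4 CPM, 21.6 to 36.7) clusters and had 2.15 CPM (1.51 to 2.98) in naive pluripotent-like cells. Col4a2 and Sparc had the same top clusters, at 15.1 and 20.7 CPM and at 418 and 443 CPM. Lama1 had the opposite pattern: 57.8% of its LB UMIs were in naive pluripotent-like cells, at 3.52 CPM (2.68 to 4.55). Those cells held 36.8% of all LB UMIs. At Leiden resolution 1, the cluster of that name had 250 cells and 28.4% of the Lama1 UMIs. Lama1 had 2 UMIs in the mesoderm-like cluster and 0 in the trophoblast-like cluster. Its highest levels were 12.1 CPM (5.54 to 23.0) in an unnamed cluster of 61 cells led by Slc7a3, Pmel, Spp1, A2m and Retsat, and 6.40 CPM (4.18 to 9.38) in another led by Calb2, S100a13, Lrrc31, Fabp3 and Crxos. Lamb1 peaked in the same 61 cells (44.4 CPM) and in the primitive streak-like cluster (32.0 CPM), with overlapping intervals. Both laminin genes were thus highest in the cluster of 61 cells, whose median depth was 10944 UMIs and whose median share of mitochondrial UMIs was 6.74%, against 2.11% to 2.86% in the other LB clusters, and they differed in the clusters that came next. The part of RNA quality in these levels was not tested.

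**Figure D2:**
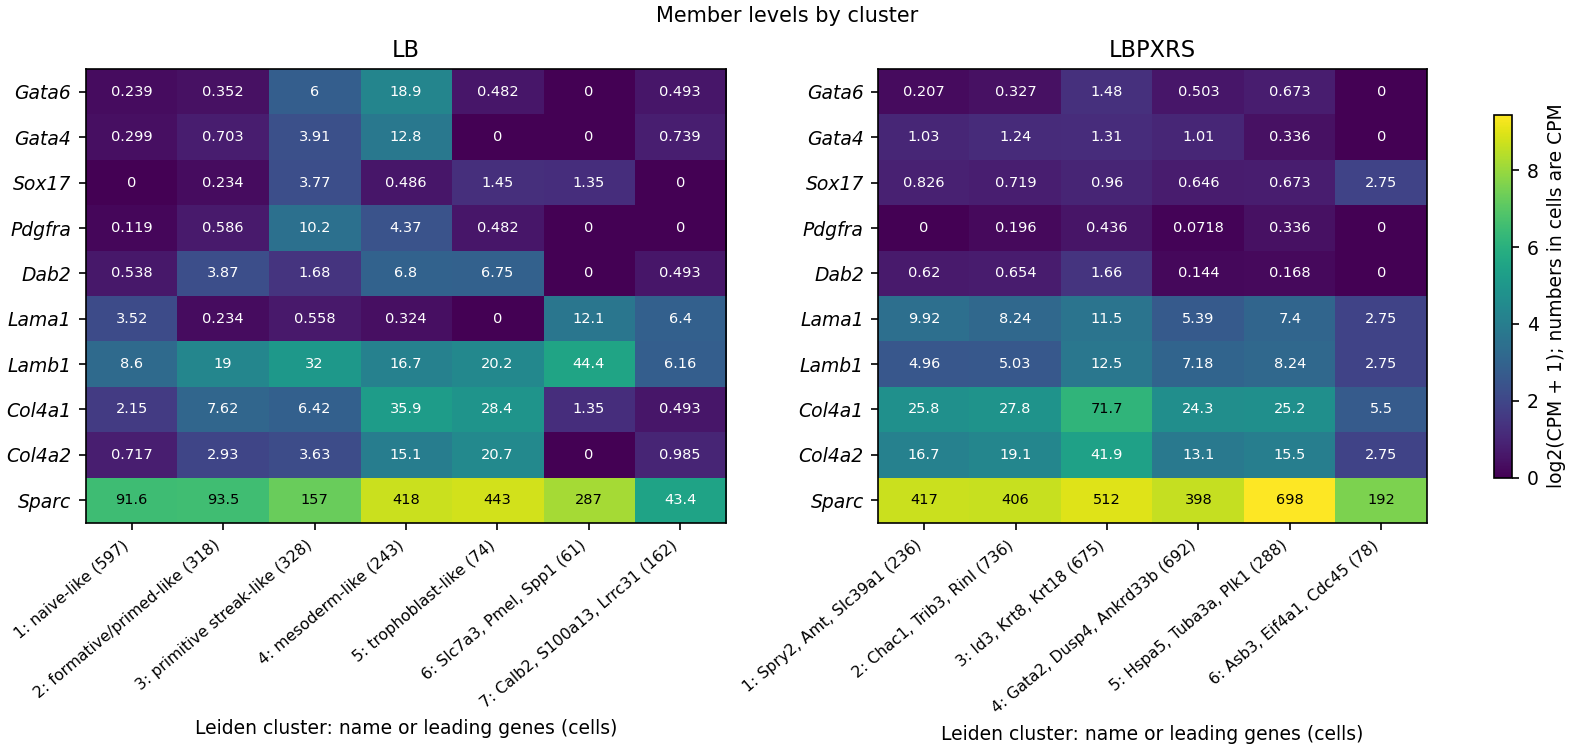
Levels of the 10 genes by Leiden cluster in LB (left) and LBPXRS (right). Colour is log2(CPM + 1), printed numbers are CPM, and cell numbers stand in parentheses. Within LB, Gata6 and Gata4 are highest in cluster 4 and Lama1 in clusters 6 and 7, and within LBPXRS, Col4a1 and Col4a2 are highest in cluster 3.

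The difference between the libraries in the factor group depended on which LB cells were compared. LBPXRS had no cluster named mesoderm-like or primitive streak-like. Against the naive pluripotent-like LB cells alone, the log2 ratios of Gata6, Gata4, Pdgfra and Dab2 changed sign to 0.42, 0.67, 0.11 and 0.12. These LB levels rest on 4, 5, 2 and 9 UMIs, and of the 4 genes only Gata4 had intervals that did not overlap. Without the 3 cells described below, Dab2 had 0.463 CPM in LBPXRS, against 0.538 CPM in these LB cells. The number of members at least 2-fold lower went from 4 to 0. For Gata6, Pdgfra and Dab2, below 1 CPM in these LB cells, the pseudocount of 1 fixed that outcome. The log2 ratios of Col4a1, Col4a2 and Sparc grew to 3.55, 3.73 and 2.32, and that of Lama1 became 1.03. The 4 higher members were the same in both comparisons.

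In LBPXRS, no cluster could be named from the markers. Col4a1 and Col4a2 were highest in a cluster of 675 cells led by Id3, Krt8, Krt18, Sct and Ccn2, at 71.7 CPM (66.9 to 76.8) and 41.9 CPM (38.2 to 45.8), against 27.8 and 19.1 CPM in the next cluster. Krt8 and Krt18, the keratin pair of simple epithelia, are among its leading genes, but 1 cell held 296 of its 391 Krt8 UMIs and 333 of its 488 Krt18 UMIs, and no UMI of Lama1, Lamb1 or the factor group. Krt8 was found in 4.59% of the cells of the cluster (3.14 to 6.46) and in 6.60% of the other cells, so most of them had no keratin UMI. With that cell and the 3 cells described below left out, Col4a1 had 51.4 CPM (40.8 to 63.7) in the 85 cells of the cluster with a Krt8 or Krt18 UMI and 57.7 CPM (53.1 to 62.7) in the 586 without, which overlap. Sparc was highest in another cluster of 288 cells, led by Hspa5, Tuba3a, Plk1, Pdia6 and Ccnb1, at 698 CPM (677 to 719), against 512 CPM (499 to 525) in the cluster of 675. The factors had at most 1.48 CPM in any cluster except Sox17, which had 2.75 CPM from 1 UMI in a cluster of 78 cells with a median depth of 3336.5 UMIs.

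Whether factors and matrix genes were found in the same cells was asked next. In LB, 175 cells had a UMI of Gata6, Gata4 or Sox17. Those cells had 32.0 CPM of Col4a1 (27.1 to 37.5), against 6.85 CPM (6.07 to 7.70) in the other 1608, and 14.1 CPM of Col4a2 (10.9 to 17.9) against 3.34 (2.80 to 3.95). Sparc had 311 CPM (296 to 328) against 144 CPM (140 to 148). Col4a1, Col4a2 and Sparc were thus at least 2-fold higher in these cells, where 3.58% of 7592 genes were and 4.02% were 2-fold lower, and Lamb1 was not, with a log2 ratio of 0.32. Lama1 was nearly absent from them, with 1 UMI in the 175 cells and 101 in the others. The median depths were 25289 and 25449.5 UMIs.

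The sets of cells with each factor differed. Among the 99 LB cells with a Gata6 UMI, 30.3% (21.5 to 40.4) had Gata4, against 2.97% of the others, and 55.6% (45.2 to 65.5) had Col4a1, against 13.1%. The 28 cells with Sox17 showed neither: 1 had Gata6, 1 had Gata4 and 3 had Col4a1, while 15 had Lamb1. After thinning, 63 LB cells kept a factor UMI, and Col4a1 was in 17.5% of them (9.05 to 29.1) against 4.31% of the rest (3.39 to 5.40). Thinned shares of Col4a2 (4.76% and 1.98%) and Lamb1 (11.1% and 8.38%) had overlapping intervals, and Lama1 was in 0 of 63, for which the exact interval reaches 5.69%.

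The comparison was also made within the LB clusters with the most factor UMIs. Within the mesoderm-like cluster, the 96 cells with a factor UMI had 48.3 CPM of Col4a1 (40.3 to 57.6), against 26.9 CPM (21.8 to 32.8) in the 147 without, and 19.6 CPM of Col4a2 (14.6 to 25.7) against 11.8 (8.48 to 15.9). No member was 2-fold higher there, where 1.33% of genes were higher and 1.55% lower. Sparc had 410 and 424 CPM. In the primitive streak-like cluster, the 53 cells with a factor UMI had 16.2 CPM of Col4a1 (10.0 to 24.7), against 4.26 CPM (2.76 to 6.29) in the 275 without. For Col4a2 the levels there were 9.25 and 2.39 CPM with intervals that did not overlap, while Lamb1 (35.5 and 31.2 CPM) and Sparc (181 and 151 CPM) had overlapping intervals. The share of all genes past 2-fold was not computed for this cluster.

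In LBPXRS, 3 cells stood apart. They were picked out after the values were seen, as the cells with a UMI of each of Lama1, Lamb1, Col4a1 and Col4a2 and of at least 2 of Gata6, Gata4, Sox17, Pdgfra and Dab2, and they get no test. They were 3 of 2705 cells, or 0.111% (exact binomial 0.0229 to 0.324), and 0 of 1783 LB cells met the rule. Of the cells just outside it, 8 had all 4 laminin and collagen genes but fewer than 2 of the other 5, with 1 to 2 UMIs of Lama1 and 1 to 4 of Col4a1. Another 4 had 2 or more of the 5 but not all 4 matrix genes, and no UMI of Lama1 or Lamb1. In LB, 59 cells had 2 or more of the 5, of which 36 were in the mesoderm-like and 20 in the primitive streak-like cluster, and none had all 4 matrix genes.

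The 3 cells had matrix gene counts far above those of any other cell in the library. Lama1 had 21, 19 and 7 UMIs in them, and at most 3 in the other 2702 cells. Lamb1 had 20, 24 and 11, with at most 4 elsewhere. Col4a1 had 71, 81 and 19, and Col4a2 32, 62 and 29, with at most 7 of either in another cell. Every laminin and collagen count of the 3 cells was thus at or above 7, and in each gene the lowest of the 3 was above all others. Sparc had 172, 140 and 90 UMIs, against at most 76. Lama1, Lamb1, Col4a1 and Col4a2 together made up 0.695% to 1.23% of the UMIs of these cells and at most 0.0834% of those of any other LBPXRS cell.

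The factors, Pdgfra and Dab2 were also there, at low counts. Gata6 had 1, 5 and 0 UMIs, Gata4 1, 2 and 1, and Sox17 1, 4 and 0. Pdgfra had 0, 3 and 0 and Dab2 2, 8 and 1. Cell 2 was thus the only LBPXRS cell with UMIs of all 5, and cell 3 had only Gata4 and Dab2. The cells were not deep, at 15954, 15089 and 9499 UMIs. Together they held 31.4% of the library's Dab2 UMIs, 27.3% of those of Pdgfra, 17.6% of those of Gata6, 14.0% of those of Lamb1 and 9.18% of those of Col4a1. Leaving them out moved the log2 ratio of Dab2 from -1.05 to -1.24 and that of Lama1 from 1.51 to 1.36.

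**Figure D3:**
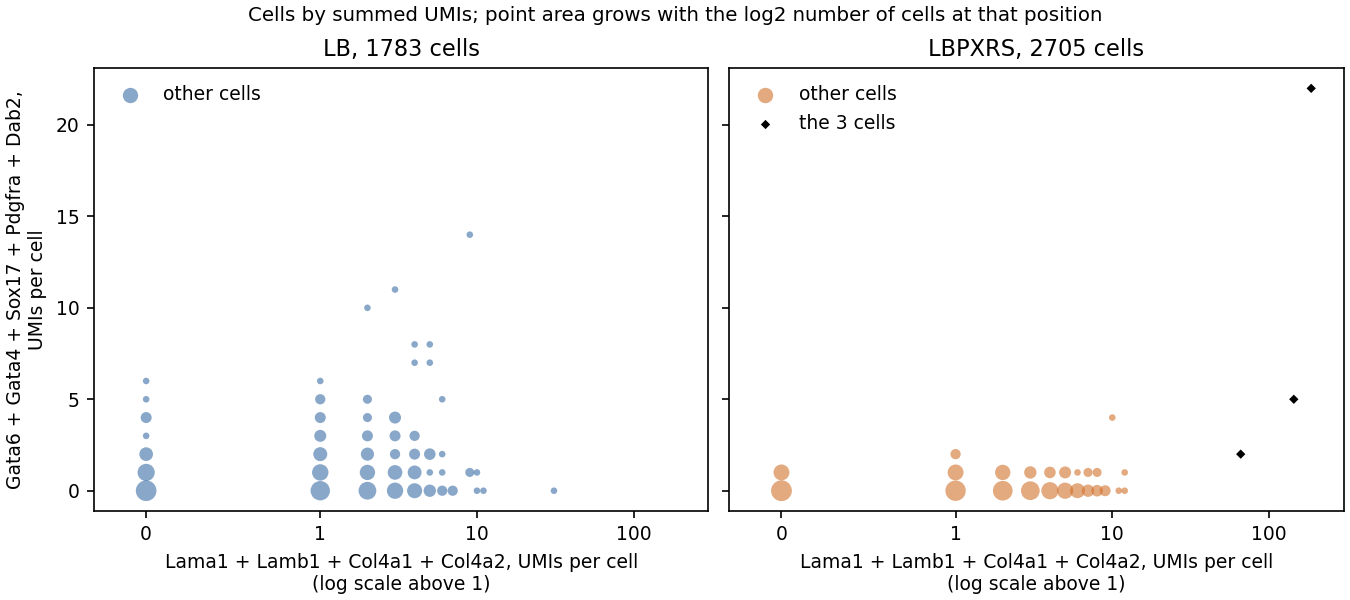
Each point is a position held by 1 or more cells: UMIs of Lama1, Lamb1, Col4a1 and Col4a2 in the cell (x, log scale above 1) against UMIs of Gata6, Gata4, Sox17, Pdgfra and Dab2 (y). The 3 LBPXRS cells (black diamonds) have 66 to 186 laminin and collagen UMIs, while the highest other cells have 12 in LBPXRS and 31 in LB.

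Other endoderm and basement membrane genes were looked up in the 3 cells. Of 10 further primitive endoderm markers, 4 had a UMI: Pth1r (5, 26 and 3 UMIs, against 10 UMIs in all other cells together), Foxa2 (1, 3 and 1), and Thbd and Plat (1 UMI each, in cell 1). Pth1r and Thbd are known from parietal endoderm. The markers summed to 1011 CPM in the 3 cells and 5.87 CPM in the rest, with 34 of the 41 UMIs from Pth1r. The trophoblast markers summed to 1283 CPM, from Krt8 and Krt18 alone, against 118 CPM. Lamc1, the gamma chain of the laminin trimer, had 20, 38 and 18 UMIs, with at most 5 elsewhere, and Nid1, which bridges laminin and collagen IV, had 13, 2 and 7. Fn1 had 1 UMI, or 24.7 CPM (0.624 to 137) against 108 in the other cells, and Agrn, Col18a1, Lama5, Fbln1 and Smoc1 had 0. With 40542 UMIs in the 3 cells, a count of 0 allows up to 74.0 CPM, above the level of these last 5 genes in the other cells, so their absence was not detectable. Apoe, from the list of further primitive endoderm genes, had 0 and was at least 14.8-fold lower, being found in 98.5% of the other cells. Serpinh1, the collagen chaperone, had 88, 87 and 49, with at most 9 elsewhere. The 5 genes with the highest fold over the other cells, members left out, were Hs3st1, Pth1r, Wnt4, Glipr1 and Tinagl1. Hs3st1 (a heparan sulfate sulfotransferase) had 4, 31 and 9 UMIs and Wnt4 had 15, 11 and 4.

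Most pluripotency genes had few or no UMIs in the same cells, with Klf5 as an exception. Klf5, a naive marker, had 11, 1 and 1 UMIs, or 321 CPM (171 to 548), against 181 CPM in the other cells. Pou5f1 had 1, 1 and 0 UMIs, or 49.3 CPM (5.97 to 178), against 991 CPM in the other cells. Nanog and Sox2 had 0 UMIs, which with a floor of 3 UMIs over the 3 cells makes them at least 2.39-fold and 3.14-fold lower. All 8 fibroblast or feeder markers and all 8 endothelial markers were at 0 in the 3 cells. Of 11 trophoblast markers, Krt8 (16, 8 and 8 UMIs) and Krt18 (14, 2 and 4) had UMIs, and Cdx2 and the others had 0. The cells lay in the cluster of 675 and were not marked as doublets, and none of their barcodes was among the LB cells. The pseudogene Ftl1-ps1 took 0.134% of the Ftl1 and Ftl1-ps1 UMIs in them (0.00339 to 0.744), beside 0.410% in LBPXRS and 47.6% in LB.

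**Figure D4:**
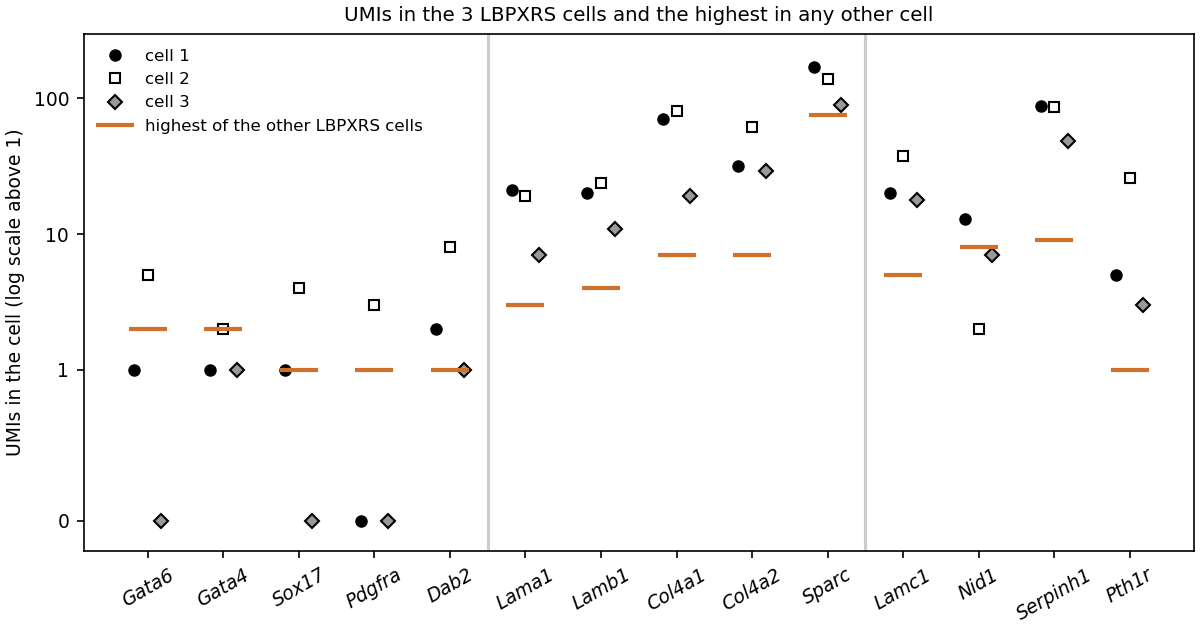
UMIs of the 10 genes and of Lamc1, Nid1, Serpinh1 and Pth1r in the 3 LBPXRS cells (symbols, log scale above 1), with the highest count in any other LBPXRS cell as an orange bar. For Lama1, Lamb1, Col4a1, Col4a2 and Sparc all 3 cells lie above the bar, while counts of Gata6, Gata4 and Sox17 are 0 to 5.

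Over the whole LBPXRS library, cells with and without a factor UMI were compared with and without these 3 cells. Since they were picked for carrying both kinds of genes, some fall in co-detection without them is fixed by the choice. The 114 cells with a UMI of Gata6, Gata4 or Sox17 had 28.3 CPM of Lama1 (21.9 to 36.0), against 7.27 CPM (6.54 to 8.06) in the others, and 116 CPM of Col4a1 (102 to 130) against 32.2 (30.6 to 33.8). Lama1, Lamb1, Col4a1 and Col4a2 were at least 2-fold higher in them, where 0.329% of 6991 genes were and 0.1% were lower. Without the 3 cells, Lama1 had 8.29 CPM (4.99 to 12.9) and 7.27 CPM, Lamb1 6.11 and 6.57 CPM, and Col4a1 43.2 CPM (35.1 to 52.6) and 32.2 CPM (30.6 to 33.8), which did not overlap. No member was then 2-fold higher, where 0.0572% of genes were higher and 0.143% lower. The cluster of 675 cells kept 57.0 CPM of Col4a1 (52.7 to 61.6) and 31.3 CPM of Col4a2 (28.1 to 34.7) without them, against 25.8 and 16.1 CPM in the rest of the library, while its Lama1 level went from 11.5 to 7.44 CPM, against 7.28.

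Correlations across cells are given as descriptions without a test, since all cells of a library share its source and counts are sparse. In LB, the median Pearson r over the 45 pairs of members was 0.05. The highest were Col4a1 with Col4a2 (0.40), Col4a1 with Sparc (0.32) and Gata6 with Gata4 (0.29), and Gata6 with Col4a1 had 0.25. Lama1 was not correlated with its partner Lamb1 (0.01) and was lowest with Col4a1 (-0.06). With Spearman's rho on thinned counts the LB values were smaller: 0.10 for Col4a1 with Col4a2, 0.11 for Gata6 with Gata4 and 0.07 for Gata6 with Col4a1. In LBPXRS, the median was 0.18 and 42 of 45 pairs were at 0.1 or more. Without the 3 cells the median was 0.01 and 1 pair was at 0.1 or more, Col4a1 with Col4a2, which went from 0.32 to 0.23. Gata6 with Gata4 went from 0.20 to 0.05 and Lama1 with Lamb1 from 0.27 to 0.08. Part of this fall is fixed by the choice of the 3 cells.

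**Figure D5:**
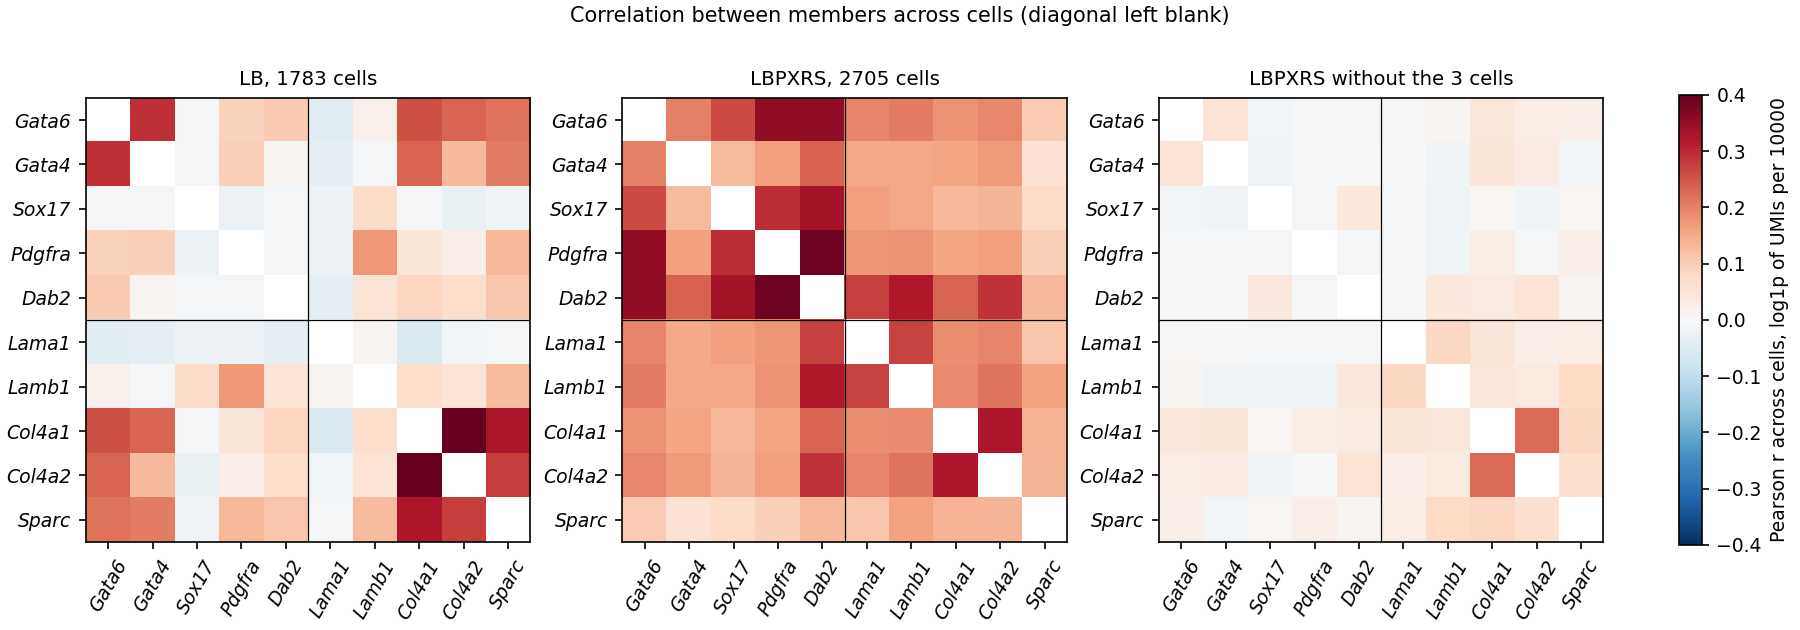
Pearson r across cells for the 45 pairs, on log1p of UMIs per 10000, in LB, in LBPXRS and in LBPXRS without the 3 cells. The red field over LBPXRS, with 42 pairs at 0.1 or more, is left with 1 such pair, Col4a1 with Col4a2, when 3 of 2705 cells are removed. These cells were picked for carrying these genes, so part of the fall is fixed by the choice.

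The genes most like each group across cells, among those with at least 20 CPM, differed between libraries. In LB (1783 cells, 4821 genes ranked), the sum of Lama1, Lamb1, Col4a1 and Col4a2 was most like Prtg (r = 0.35), Serpinh1, Scd2, Ppic and Amot (r = 0.31). The sum of Gata6, Gata4 and Sox17 was most like Ppic (0.41), Hmga2, Igfbp4, Peg3 and Pmp22 (0.34). Sparc was most like Tpm1 (0.54), Serpinh1 (0.53), Krt8 (0.52), Cald1 and Pmp22 (0.49). In LBPXRS (2705 cells, 4567 genes), Sparc was most like Igfbp2 (0.36) and Cd9 (0.34), with Calr, Pdia6 and Hspa5, which serve protein folding in the endoplasmic reticulum (0.35, 0.34 and 0.30). Without the 3 cells the first 4 were kept in a different order and Trap1a took the place of Hspa5. The laminin and collagen sum was most like Lamc1 in LBPXRS (0.22), and without the 3 cells Rps29 (0.22) came first and Lamc1 was no longer among the first 5.

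Most of the other basement membrane genes lay within 2-fold. Of 23 further basement membrane genes, 13 had at least 1 CPM, of which 1 was at least 2-fold higher in LBPXRS, 1 lower and 11 neither, with a median log2 ratio of 0.05. These counts are near the shares over all genes (8.43% higher and 11.8% lower) and are no result about the list. Nid1 was the higher one, from 6.64 CPM (5.91 to 7.43) to 53.4 CPM (51.5 to 55.5), a log2 ratio of 2.83. The lower one was Col18a1, the source of endostatin, from 36.5 to 14.9 CPM. Lamc1 (21.2 and 36.9 CPM), Hspg2, which encodes perlecan (17.8 and 31.5), Nid2 (29.1 and 41.4), Lama5 (13.3 and 19.3), Agrn (19.3 and 16.6), Fbln1 (12.9 and 12.8) and Fn1, which encodes fibronectin (139 and 108), were within 2-fold. The alternative collagen IV chains were rare: Col4a3 had 0 UMIs in both libraries, and Col4a5 had 22 UMIs in LB and 0 in LBPXRS.

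Enzymes and chaperones that make collagen and laminin went both ways. Of 13 such genes, 0 were at least 2-fold higher (8.43% over all genes), 3 were lower (11.8% over all genes) and 10 were within 2-fold, with a median of -0.33. Serpinh1 had 91.6 CPM in LB and 42.2 in LBPXRS (log2 ratio -1.10), and the prolyl hydroxylase subunit P4ha2 10.9 and 3.03 CPM (-1.56). Plod1, P3h1, Colgalt1 and Crtap were higher in LBPXRS within 2-fold, with log2 ratios of 0.85, 0.82, 0.73 and 0.58 and intervals of the levels that did not overlap. Among 9 matrix receptors, 6 were compared. Itga6 (24.0 and 49.5 CPM) and Itgb4 were at least 2-fold higher (8.43% over all genes). Itgb1, the shared beta subunit of laminin and collagen receptors, was lower (62.9 and 21.1 CPM, 11.8% over all genes), and 3 were within 2-fold.

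Upstream signals and later endoderm genes went both ways. Of 9 signalling genes, 3 were at least 2-fold higher and 2 lower, beside 8.43% and 11.8% of all genes. Fgf4, the epiblast ligand that instructs primitive endoderm, had 39.5 CPM in LB and 205 in LBPXRS, and Nanog, which opposes Gata6, had 75.2 and 177. Pdgfc was the other higher gene. Endogenous Bmp4 had 45.9 and 0.405 CPM, a log2 ratio of -5.06, and Fgfr2 was also lower. Pdgfa, a ligand of Pdgfra, had 53.2 and 102 CPM. Of 18 further primitive endoderm genes, 8 were compared, with 2 higher, 2 lower (8.43% and 11.8% over all genes) and a median of -0.07. Apoe had 394 and 1093 CPM and Cited1 45.9 and 7.12 CPM, and in the 3 cells Cited1 had 1, 7 and 1 UMIs. Sox7 had 4 UMIs in each library and Ttr had 0 in LB and 4 in LBPXRS.

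Promoters were searched for GATA motifs (AGATAA or the variant AGATAG, and TGATAA or the variant TGATAG, on both strands) in the 250 bases before the start, in RefSeq promoters of GRCm38.p6, the build of the files. Entries existed for Sparc, Pdgfra, Dab2, Lamb1, Col4a1 and Col4a2, 7 in all. A match was found in 1 of 7, beside 26.5% of 32851 promoters in the table. The match is in the entry of Dab2, 179 bases before the start, and is shown with 12 bases on each side on the plus strand, the motif in capitals, because it is the only match in the 7 entries. Gata6, Gata4, Sox17 and Lama1 were not searched.
chr15:6299598-6299627: tgatttttcttcTGATAAcaggaataggag
No annotated exon overlapped these bases. A match describes letters in a window and not a bound site.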

How the data were processed

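The deposited matrices hold UMI counts per gene and barcode, made by the authors with Cell Ranger 4.0.0 on mm10, per the submitters' processing notes. Chemistry was 10x Genomics 3′ version 2, per the labels' protocols. Barcodes with under 1000 genes or over 10% mitochondrial UMIs were left out (225 of 2008 in LB, 406 of 3111 in LBPXRS). Scrublet in scanpy 1.11.5 marked 18 and 10 cells as doublets, which were kept. UMIs were summed per library and scaled to 1000000. Intervals are exact (Poisson, or Clopper-Pearson for shares) at 95%, and with the limits of 3 counts they cover counting error only. Shares used cells thinned to 5000 UMIs (1733 and 2621 cells). Clusters used 2000 variable genes without members, 30 components, 15 neighbours and Leiden resolution 0.5. A cluster name needed at least 4 raised markers and leading genes that do not go against it. TMM factors came from edgeR 4.0.16 and served only as an alternative scaling.

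The members, the lists and the markers were chosen with earlier results of these data known. The naming thresholds, the rule for the 3 cells, the cell rich in keratins and the split of each LB cluster were chosen after values were seen. Named genes were the members, list genes with at least 10 CPM in either library, the 5 genes most like each group, and the 5 leading genes of a cluster. Others (Hand1, Krt8 and Krt18 levels, Foxa2, Thbd, Plat, Itgb4, Pdgfc, Fgfr2, Sox7, Ttr, Col4a3, Col4a5 and genes of the 3 cells) were named after their values were seen. The fold rule and the thinning were tested on simulated data. The mesoderm marker counts of the 3 cells are not reported here.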

Additional observations from a re-analysis of the deposited data

Results flagged for a closer look

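The barcodes left out by the filter were used in no comparison. In the 406 left out of LBPXRS, Sparc had 851 CPM (786 to 921), above the 454 CPM (407 to 505) in the 225 left out of LB, which is why it is listed. The kept cells had 460 and 161 CPM. No other member had an interval in the LBPXRS barcodes above that in the LB barcodes.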

How the results depend on the processing

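No paired analysis was possible because each condition has 1 library. Lama1, Lamb1, Col4a1, Col4a2 and Sparc kept their direction under all 9 alternatives run, and Gata6, Gata4, Pdgfra and Dab2 under 8, the exception being LB cells restricted to naive pluripotent-like ones. Sox17 kept its sign under 6 of 9, between -0.10 and 0.83. With the naive pluripotent-like cells the log2 ratios of Gata6, Gata4, Pdgfra and Dab2 were 0.42, 0.67, 0.11 and 0.12, the medians of the factor group and the matrix genes 0.42 and 2.32, and 0 members were at least 2-fold lower. The pseudocount of 1 fixed that outcome for Gata6, Pdgfra and Dab2, which were below 1 CPM in those LB cells. The factor group and matrix medians were -1.72 and 1.83 with a pseudocount of 0.1, and the matrix median was 2.15 with the chromosome median subtracted. The number lower was 2 with TMM and 1 at a minimum of 10 CPM, which leaves 4 members. The other counts were within 1.5 times. In LBPXRS, 5 of 5 matrix genes had a higher thinned share in cells with a factor UMI than in cells without, and 1 of 5 (from 32 cells) when the 3 cells were left out. At full depth and without them, all 5 were higher in the 111 cells with a factor UMI, such as Col4a1 at 45.9% (36.4 to 55.7) and 39.8% (37.9 to 41.7), and the intervals of Lama1, Lamb1, Col4a1, Col4a2 and Sparc overlapped. In LB it was 4 of 5, and 2 of 5 within the mesoderm-like cluster. The mesoderm-like share of factor UMIs (60.9%) was 19.9% at resolution 1 and 80.7% with members in the clustering. The median correlation in LB (0.0542) was -0.00596 in the largest cluster and 0.0163 with Spearman on thinned counts, with 4 pairs at 0.1 or more in place of 15. In LBPXRS it was 0.0390 with Spearman on thinned counts, 0.00668 in the largest cluster and 0.0102 without the 3 cells. Single pairs changed sign in the largest cluster: Gata6 with Gata4 was -0.00736 in LB and -0.0129 in LBPXRS, and Gata6 with Col4a1 was -0.0187 in LB. Gata6 with Col4a1 was -0.00392 in LBPXRS with Spearman. The 3 cells were picked for carrying both kinds of genes, so part of the fall without them is fixed by the choice. The cause of these changes was not tested. At this depth, the thinned factor shares in LBPXRS have intervals that overlap those of naive-like LB cells. The CPM intervals of Gata4 and Sox17 at full depth do not overlap.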

Other observations

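The barcodes left out for few genes or many mitochondrial UMIs were rich in laminin beta and Sparc transcripts in both libraries. Lamb1 had 107 CPM (84.5 to 133) in the left-out LB barcodes, beside 16.2 in the kept cells, and 41.2 CPM (27.8 to 58.8) beside 7.60 in LBPXRS. Lama1 had 16.2 CPM (8.38 to 28.3) beside 2.24 in LB. Gata6 had 7 UMIs in the left-out LB barcodes, or 9.46 CPM (3.80 to 19.5), beside 3.74 in the kept cells.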
